A study of Mus musculus with 10 samples.

Results

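Complement is a cascade of soluble proteins that tags particles and dying cells and calls in phagocytes. The classical pathway starts when C1q binds antibody complexes or altered surfaces, and it proceeds through C4 and C2 to an enzyme that cleaves C3; the alternative pathway builds its own C3-cleaving enzyme from C3 and factor B. C1 inhibitor restrains the first step, and the released peptides C3a and C5a act on leukocytes through their receptors. Liver makes most complement of the blood, while macrophages are a main source of C1q in tissues and tumors.

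The complement components and receptors described here were given as 10 genes: C1qa, C1qb, C1qc, C2, C3, C4b, Cfb, Serping1, C3ar1 and C5ar1. A gene was taken when a probe set of the array was annotated to that symbol and to no other. This held for 8 of the 10 genes, read by 15 of the 34945 probe sets with 1 symbol; C3 and C4b are not analysed here. RNA had been measured on 1-colour Affymetrix mouse 3′ arrays in 10 tumors formed by B16 cells, a mouse melanoma line that grows in C57BL/6 hosts. The groups were 5 tumors labelled Bach2-deficient and 5 labelled wild type, all on the C57BL/6 background, taken as whole tumors, mechanically dissociated and extracted with Trizol. Bach2 encodes a transcriptional repressor of lymphocytes, and the comparison asks how its loss changes the RNA of the whole tumor. The labels give no age, sex, treatment or batch, do not name the deleted part of Bach2, and do not say whether host or tumor cells carried the deficiency. Melanocyte markers were bright in both groups, Dct for example at 13.2 ± 0.15 in Bach2-deficient and 13.5 ± 0.039 in wild-type tumors (log2, mean ± SD, n = 5 each).

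Bach2 itself was read by 3 probe sets. The brightest, 1445460_at, stood at 4.96, 6.13, 5.84, 6.37 and 6.16 in Bach2-deficient tumors, against 6.84, 5.93, 7.64, 7.78 and 6.62 in wild-type tumors. The groups overlapped, and the change of -1.07 did not pass (limma adjusted p = 0.0551 over all genes and 0.0615 over all probe sets). The others changed by -1.05 (1436515_at, adjusted p = 0.0330 over all probe sets) and -0.35 (1437667_a_at, adjusted p = 0.371), and whether any of them lies in the deleted part is not given in the sources used here.

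Some features of the arrays moved with the groups. The bacterial poly-A controls added before labelling read 9.93 to 10.2 on Bach2-deficient and 11.9 to 12.4 on wild-type arrays. The hybridization controls, added after labelling, read 11.55 to 11.88 on Bach2-deficient and 11.96 to 12.64 on wild-type arrays, also without overlap. Xist, transcribed in females, was low on 4 Bach2-deficient arrays (4.76 to 6.61), high on Bach2-deficient replicate 2 (11.9) and high on all wild-type arrays (11.4 to 12.2). Y-linked Eif2s3y was the reverse, at 4.504 on Bach2-deficient replicate 2, 10.5 to 10.9 on the other Bach2-deficient arrays and 5.07 to 7.68 on wild-type arrays. The difference between 3′ and 5′ probe sets of the actin control, a sign of RNA quality, was 0.59 to 1.07 on Bach2-deficient and 0.81 to 1.16 on wild-type arrays, which overlapped.  The part of the spike-in, Xist and actin differences in the results was not tested except by the term for Xist given below. Both sets of controls separated the groups, so an effect of sample or array processing cannot be told apart from that of genotype.

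Promoters of the members are shown first, and whether they bear on the changes was not tested. RefSeq promoters (build GRCm38.p6) were given for 4 of the 8 measured genes, and the 250 bases before the annotated start of 3 of them follow, 5′ to 3′ on the strand of the gene. C1qb and C1qc are shown as neighbours that both rose, and C3ar1 as the receptor gene with a motif match. The windows shown are thus those with a match, and that of C5ar1 is left out. Capitals mark matches, on either strand, to the macrophage factor PU.1 core GAGGAA or to TGANTCA, the core bound by AP-1 and also contained in the element that BACH proteins bind with small MAF partners.
C1qb (chr4:136886201-136886450, minus strand): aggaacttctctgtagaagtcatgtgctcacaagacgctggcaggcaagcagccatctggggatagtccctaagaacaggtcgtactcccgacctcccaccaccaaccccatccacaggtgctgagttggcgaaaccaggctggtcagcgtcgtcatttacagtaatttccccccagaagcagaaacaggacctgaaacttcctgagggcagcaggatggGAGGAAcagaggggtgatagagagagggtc
C1qc (chr4:136892915-136893164, minus strand): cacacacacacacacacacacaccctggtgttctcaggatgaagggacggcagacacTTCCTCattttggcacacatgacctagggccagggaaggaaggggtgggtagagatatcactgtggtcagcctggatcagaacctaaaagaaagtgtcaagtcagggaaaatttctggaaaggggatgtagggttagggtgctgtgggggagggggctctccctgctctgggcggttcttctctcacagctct
C3ar1 (chr6:122856158-122856407, minus strand): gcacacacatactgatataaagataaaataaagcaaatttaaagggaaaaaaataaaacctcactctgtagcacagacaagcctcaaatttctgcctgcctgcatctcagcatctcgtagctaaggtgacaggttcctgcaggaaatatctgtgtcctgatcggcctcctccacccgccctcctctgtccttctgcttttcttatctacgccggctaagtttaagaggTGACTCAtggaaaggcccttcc

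The PU.1 core lay 25 to 30 bases before the start in C1qb, and on the opposite strand 188 to 193 bases before it in C1qc. The AP-1 core, which reads the same on both strands, lay 16 to 22 bases before the start in C3ar1. The interferon-stimulated response element core (ISRE core: GAAA, any 2 bases, GAAA) was found in none of the 4 windows, and the C5ar1 window held none of the 3 motifs; no match overlapped another. Over 32851 RefSeq promoters of the same length, 23.3% held GAGGAA, 6.75% TGANTCA and 2.98% the ISRE core. A match describes these letters and is not a shown binding site.

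Complement genes were mostly higher in the Bach2-deficient tumors. Of the 8 measured genes, 6 rose and 0 fell at a limma adjusted p under 0.05, where 16.3% of all 18193 genes rose and 12.4% fell. At an unadjusted limma p under 0.05, 7 were higher and 0 lower. The median change of the 8 genes was 1.17 on the log2 scale, against -0.06 for all genes. The groups did not overlap for 4 of the 8 genes, all 4 higher in Bach2-deficient tumors (11.2% of all genes were higher and 7.67% lower without overlap). By probe set, 11 of the 15 rose and 0 fell (14.1% and 10.1% of all 34945). The groups did not overlap for 6 of the 15, all higher in Bach2-deficient tumors (9.81% of all probe sets were higher and 6.88% lower in this way). The rising genes were the 3 C1q chains, Cfb, Serping1 and C3ar1. The plot of levels by array shows the 8 genes side by side.

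**Figure D1:**
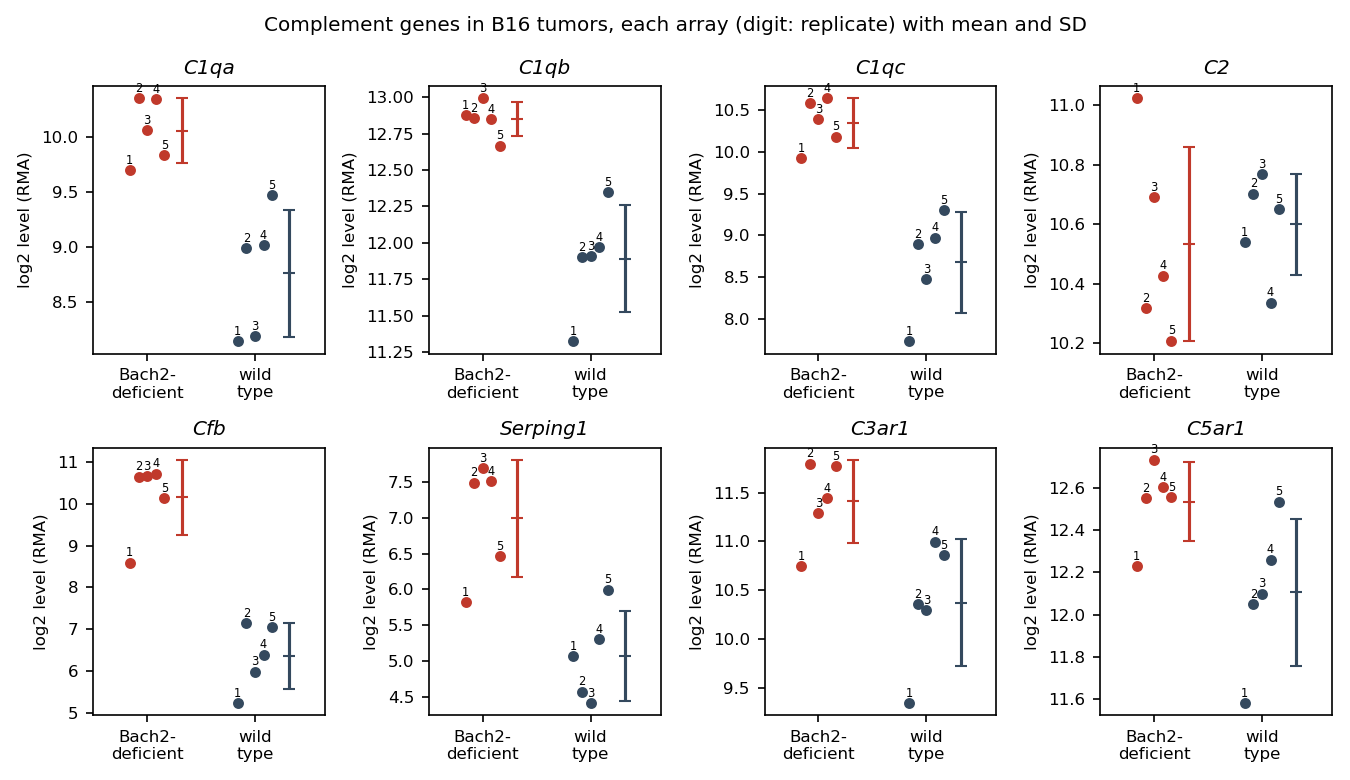
log2 level (RMA, vertical axes, each with its own range) of the 8 complement genes on the 10 arrays, Bach2-deficient in red and wild type in dark blue; digits are replicate numbers and bars the mean and SD of 5 arrays. C1qa, C1qb, C1qc and Cfb show no overlap between the groups, and the Bach2-deficient values of C2 lie on both sides of the wild-type values.

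C1qa, C1qb and C1qc encode the A, B and C chains that are built into 1 recognition molecule, and they lie next to each other on chromosome 4 in the order C1qb, C1qc, C1qa. All 3 rose, between 1.94-fold (C1qb) and 3.18-fold (C1qc). C1qa read 9.70, 10.35, 10.06, 10.34 and 9.83 in Bach2-deficient tumors (replicates 1 to 5), against 8.15, 8.99, 8.19, 9.02 and 9.47 in wild-type tumors. Every Bach2-deficient tumor lay above every wild-type tumor, the nearest being Bach2-deficient replicate 1 and wild-type replicate 5. The change was 1.29 (SE 0.26; 2.45-fold, 95% interval 1.64 to 3.66; limma adjusted p = 0.00519).

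C1qc read 9.92, 10.58, 10.39, 10.64 and 10.18 in Bach2-deficient tumors, against 7.73, 8.90, 8.48, 8.97 and 9.30 in wild-type tumors. The groups did not overlap, and the same tumors stood at their edges as for C1qa. Its change of 1.67 (SE 0.27; 95% interval of the fold 2.09 to 4.84; limma adjusted p = 0.00178) was the largest of the 3 chains.

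C1qb, read by its brightest probe set, 1437726_x_at, stood at 12.88, 12.86, 12.99, 12.85 and 12.67 in Bach2-deficient tumors, against 11.32, 11.90, 11.91, 11.97 and 12.35 in wild-type tumors. The Bach2-deficient tumors lay within 0.33 of each other and all above the wild-type tumors, which spanned 1.03. The change was 0.96 (SE 0.17; limma adjusted p = 0.00231). A second bright probe set, 1434366_x_at, changed by 0.84, and the dimmer 1417063_at by 1.51 (SE 0.25; adjusted p = 0.00233 over all probe sets). The suffix _x_at marks probe sets whose probes may also match other transcripts; the size of the C1qb change thus depends on the probe set read.

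Within an array the difference C1qb minus C1qc was 2.21 to 2.96 in Bach2-deficient and 3.00 to 3.59 in wild-type tumors, with no overlap. Read by 1417063_at it was 0.12 to 0.30 in Bach2-deficient and 0.23 to 0.49 in wild-type tumors, which overlapped, so the separation depends on the probe set. The difference C1qa minus C1qc was -0.35 to -0.23 in Bach2-deficient and -0.28 to 0.42 in wild-type tumors, and these ranges overlapped. Probe sets differ in affinity and brightness, so these differences describe the readings and not the ratio of chains.

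C2 and Cfb encode related serine proteases that supply the catalytic part of the classical and of the alternative C3-cleaving enzyme. They are adjacent protein-coding genes on chromosome 17, and they differed widely here: Cfb rose 13.7-fold, while C2 did not pass the test. Cfb read 8.59, 10.64, 10.65, 10.71 and 10.13 in Bach2-deficient tumors, against 5.25, 7.16, 6.00, 6.40 and 7.05 in wild-type tumors. The groups did not overlap, with Bach2-deficient replicate 1 well under the other Bach2-deficient tumors. The change was 3.78 (SE 0.47; 95% interval of the fold 6.61 to 28.4; limma adjusted p = 0.000534), the 40th largest rise of the 18193 genes. It passed in each of the 22 other settings tried, with changes from 2.60 to 4.27, although 2 of them, both on Xist, share 1 contrast that rests on Bach2-deficient replicate 2 alone.

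C2 read 11.02, 10.32, 10.69, 10.43 and 10.21 in Bach2-deficient tumors, against 10.54, 10.70, 10.77, 10.34 and 10.65 in wild-type tumors. The groups overlapped, with Bach2-deficient replicate 1 above every wild-type tumor and Bach2-deficient replicates 2 and 5 below every one. The change was -0.07 (SE 0.16; 95% interval -0.42 to 0.29; limma adjusted p = 0.781). The other probe sets of C2 pointed either way, 1416051_at at 0.25 and 1441912_x_at at -0.30 (adjusted p = 0.192 and 0.243 over all probe sets). Without Bach2-deficient replicate 1 1441912_x_at changed by -0.44 and passed (adjusted p = 0.0456). The within-array difference C2 minus Cfb was -0.32 to 2.43 in Bach2-deficient and 3.55 to 5.29 in wild-type tumors, with no overlap.

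Serping1 encodes C1 inhibitor, which inactivates the proteases C1r and C1s. It read 5.82, 7.49, 7.70, 7.51 and 6.46 in Bach2-deficient tumors, against 5.07, 4.57, 4.42, 5.31 and 6.00 in wild-type tumors. The groups overlapped only through Bach2-deficient replicate 1, which lay under wild-type replicate 5. Serping1 rose by 1.92 (SE 0.41; 3.79-fold, 95% interval 2.02 to 7.13; limma adjusted p = 0.00662). Its wild-type mean of 5.07 lay close to 4.98, under which the dimmest 30% of genes lie, and no detection calls were used, so the size of the rise is not exact.

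C3ar1 and C5ar1 encode the G protein-coupled receptors of C3a and C5a, carried by macrophages, neutrophils and other myeloid cells. C3ar1 read 10.75, 11.80, 11.29, 11.44 and 11.77 in Bach2-deficient tumors, against 9.34, 10.35, 10.30, 11.00 and 10.86 in wild-type tumors. Bach2-deficient replicate 1 lay among the wild-type tumors and the other Bach2-deficient tumors above them all. C3ar1 rose by 1.04 (SE 0.31; 2.06-fold; limma adjusted p = 0.0311). Its other probe sets changed by 1.60 (1419482_at) and 1.33 (1442082_at), and both passed (adjusted p = 0.00770 and 0.0409 over all probe sets). The call of the brightest probe set did not survive the omission of any 1 of 6 arrays (10 omissions tried). These were Bach2-deficient replicate 2, 3, 4 or 5 and wild-type replicate 2 or 3 (changes 0.94, 1.07, 1.03, 0.95, 1.04 and 1.02, limma adjusted p from 0.0534 to 0.0787). The call of 1419482_at survived all 10 omissions (limma adjusted p from 0.00276 to 0.0240 over all probe sets). That of 1442082_at survived only without Bach2-deficient replicate 1 or wild-type replicate 4 or 5. The mean of the C3ar1 probe sets passed with all arrays (1.32, limma adjusted p = 0.0169).

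C5ar1 read 12.23, 12.55, 12.73, 12.60 and 12.56 in Bach2-deficient tumors, against 11.58, 12.05, 12.10, 12.26 and 12.54 in wild-type tumors. Bach2-deficient replicate 1 lay within the wild-type range, and wild-type replicates 4 and 5 lay within the Bach2-deficient range. The change of 0.43 (SE 0.17; 95% interval 0.06 to 0.81) did not pass (limma adjusted p = 0.0815). Its dimmer probe set, 1422190_at, changed by 1.19 (SE 0.36) and passed over all probe sets (adjusted p = 0.0368). The mean of both probe sets passed too (0.81, limma adjusted p = 0.0360). Adjusted over all genes, the brighter probe set was called without Bach2-deficient replicate 1 (0.51, limma adjusted p = 0.0490) or without wild-type replicate 5 (0.54, limma adjusted p = 0.0314). Adjusted over all probe sets, it was called without wild-type replicate 5 (limma adjusted p = 0.0369) but not without Bach2-deficient replicate 1 (limma adjusted p = 0.0572). The dimmer one passed over all probe sets without Bach2-deficient replicate 1 or wild-type replicate 4 or 5 and in none of the other 7 such fits. The plot of changes by probe set shows which probe sets of a gene differed.

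**Figure D2:**
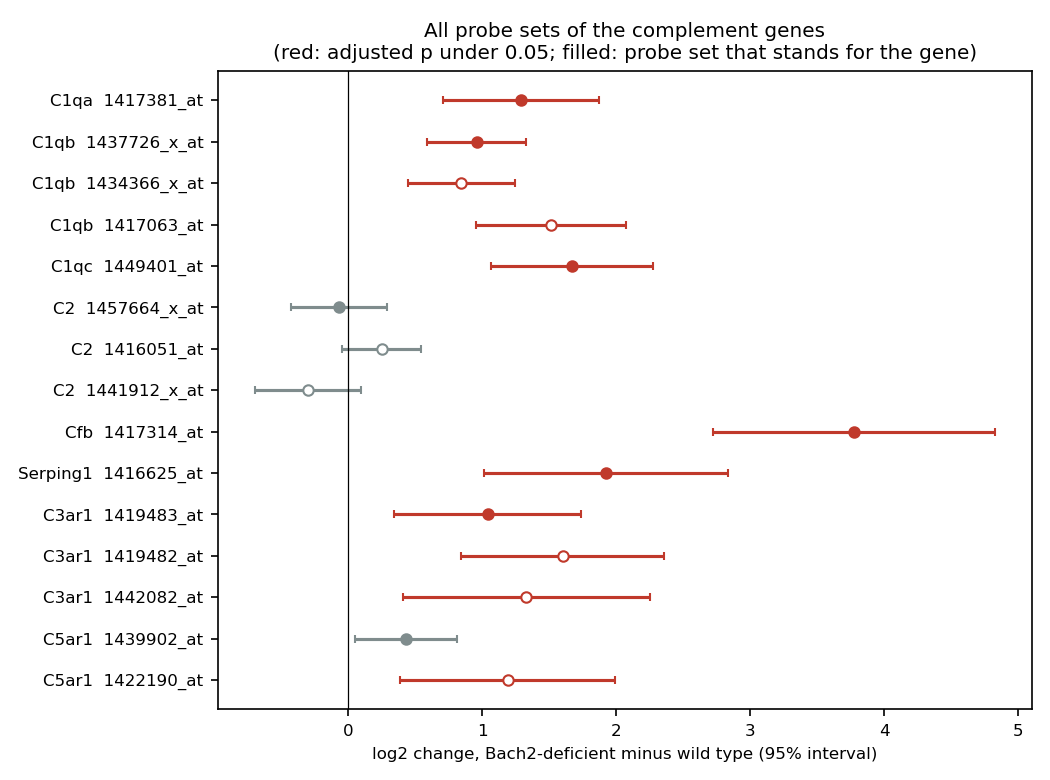
log2 change, Bach2-deficient minus wild type, with its 95% interval (horizontal axis) for the 15 probe sets of the 8 genes; red marks an adjusted p under 0.05 over all probe sets and filled points the probe set that stands for the gene. Cfb lies apart at 3.78, the 3 probe sets of C2 lie around 0, and the C5ar1 probe sets fall on either side of the threshold.

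The tumors of a group varied in a shared way across these genes. Bach2-deficient replicate 1 was the lowest of its group for 6 of the 8 genes and the highest for C2, and wild-type replicate 1 was the lowest of its group for 6 genes. Wild-type replicate 5 was the highest of its group for 5 genes. Cfb had the widest range within Bach2-deficient tumors (2.12), and C1qb the narrowest (0.33).

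Most macrophage markers were also higher in the Bach2-deficient tumors. Of 11 measured markers on a list without complement genes, 7 rose and 0 fell, with Csf1r, the receptor of macrophage growth factors, at 1.93, and Adgre1, a surface marker of mouse macrophages, at 2.10. Cd163 (-0.02) and Ms4a7 (0.35) did not pass. The list mean was 10.5 to 11.4 in Bach2-deficient and 9.06 to 10.4 in wild-type tumors, without overlap, and the log2 of its summed level was 14.8 to 15.5 in Bach2-deficient and 13.8 to 14.7 in wild-type tumors. In a whole tumor, more cells of a type and more RNA per cell cannot be told apart. The interferon-γ response list moved further, with all 8 measured genes risen and a mean of 10.01 to 10.93 in Bach2-deficient and 6.76 to 8.01 in wild-type tumors. Bach2-deficient replicate 1 had the lowest mean of its group on both lists and the highest melanocyte list mean (12.5, against 11.8 to 12.1 in the other Bach2-deficient tumors). On the melanocyte list 3 of 10 genes fell, and its mean was 11.8 to 12.5 in Bach2-deficient and 12.3 to 12.5 in wild-type tumors. Of 7 neutrophil markers 2 rose, Csf3r by 1.60 and Mmp8 by 1.14, S100a8 (0.01) and S100a9 (-0.05) being among those not called; the list mean was 7.96 to 9.94 in Bach2-deficient and 7.88 to 8.30 in wild-type tumors. Of 7 fibroblast markers 3 fell (Col1a1, Col1a2 and Pdgfrb), with list means of 6.33 to 7.84 in Bach2-deficient and 7.24 to 8.04 in wild-type tumors. Of 6 endothelial markers Pecam1 rose by 2.00, a gene also carried by leukocytes, and Cdh5 fell by 0.66. Of 4 adipocyte markers Fabp4 fell by 0.82. The part of these shifts in the complement results was tested only for the macrophage list, by the subtraction that follows, and for the melanocyte list by the covariate.

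The macrophage list mean was subtracted on each array and the fit repeated over all genes, which gives changes relative to that list. Its single markers changed by -0.02 (Cd163) to 2.28 (Aif1), so these relative changes depend on the markers listed. The subtraction moved the median change of all genes to -1.24, and 3.05% of all genes rose and 81.4% fell in it. Cfb was still higher in Bach2-deficient tumors, by 2.60 (SE 0.35, limma adjusted p = 1.82e-07), and it was the only member that rose. This p-value cannot be compared with that of the fit without the subtraction, because its moderation draws on genes that all carry the subtracted mean. For Cfb it is thus not a sign of firmer evidence. The difference of Cfb from the list mean was -1.94 to -0.39 in Bach2-deficient and -3.99 to -2.88 in wild-type tumors, with no overlap. The C1q chains and C3ar1 were then not called, at 0.11 for C1qa (95% interval -0.56 to 0.78), -0.22 for C1qb (-0.89 to 0.44), 0.49 for C1qc (-0.17 to 1.14) and -0.14 for C3ar1 (-0.79 to 0.51). Read by other probe sets, C1qb stood at 0.33 (1417063_at) and -0.34 (1434366_x_at), and C3ar1 at 0.42 (1419482_at) and 0.15 (1442082_at). None of these was called. Serping1 stood at 0.74 (limma adjusted p = 0.0542). C2 (-1.25, limma adjusted p = 0.00190) and the brighter C5ar1 probe set (-0.75, limma adjusted p = 0.0313) fell relative to the list, while the dimmer C5ar1 probe set changed by 0.01. The same mean was subtracted from every gene, and the moderated SEs of the members lay between 0.32 and 0.36. The intervals and p-values thus do not measure the scatter of each member around the list. The SD of C1qc minus the list mean, for example, was 0.25 in Bach2-deficient and 0.17 in wild-type tumors. That difference was -1.13 to -0.46 in Bach2-deficient and -1.51 to -1.09 in wild-type tumors. The groups overlapped only through Bach2-deficient replicate 5 and wild-type replicate 5. The brighter C5ar1 probe set minus the list mean was 1.17 to 1.70 in Bach2-deficient and 2.02 to 2.52 in wild-type tumors, without overlap. The intervals of the fit include differences of up to 1.14 on the log2 scale for C1qc, so a parallel change with the markers was not shown. Relative to the median of all genes in that fit, Cfb stood at 3.84, C1qc at 1.73, Serping1 at 1.99, C1qa at 1.36, C3ar1 at 1.10, C1qb at 1.02, C5ar1 at 0.50 and C2 at -0.001.

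**Figure D3:**
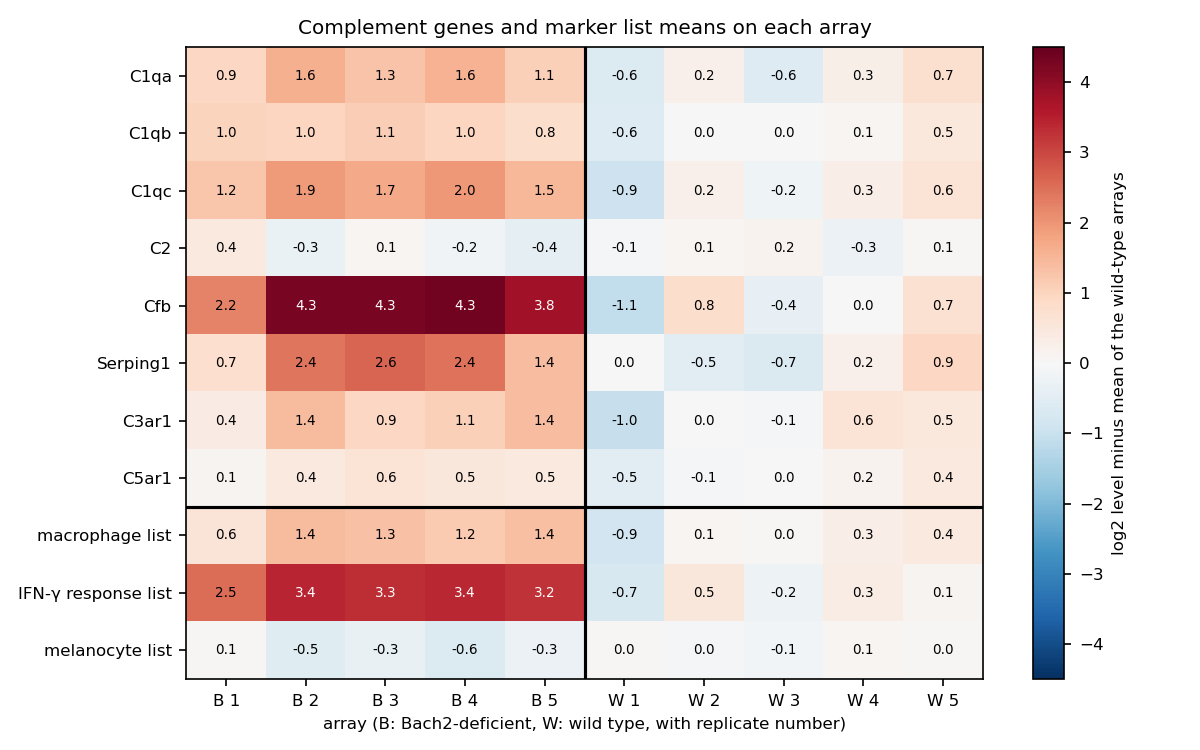
log2 level minus the mean of the 5 wild-type arrays (colour and printed value) for the 8 complement genes and 3 marker list means on each array, Bach2-deficient arrays (B) left of wild-type arrays (W). Cfb is higher on every Bach2-deficient array than on any wild-type array, and array B 1 is the lowest of its group for Cfb, Serping1 and the macrophage and interferon-γ response lists.

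When Xist status, high or low, entered the fit, Cfb (4.27, limma adjusted p = 0.0232) and C1qc (1.91, limma adjusted p = 0.0460) rose, where 5.66% of all genes rose and 2.13% fell. The changes of C1qa (1.58), C1qb (0.96), Serping1 (2.42) and C3ar1 (1.43) were no longer called (limma adjusted p from 0.0673 to 0.136). That fit sets Bach2-deficient replicate 2 alone against the wild-type tumors, so its errors are wider. Fitted on the high-Xist arrays alone, the same contrast with 1 Bach2-deficient array and so no replicate of its own, Cfb was the 1 member past the threshold (limma adjusted p = 0.0313; 3.69% of all genes rose and 1.91% fell). Adjusted for the mean of the melanocyte list, Cfb alone was called (2.80, limma adjusted p = 0.0227; 3.48% of all genes rose and 1.44% fell), and C1qc stood at 1.36, Serping1 at 1.28, C1qa at 1.06, C1qb at 0.96 and C3ar1 at 0.73. The plot of changes under other settings shows Cfb called in each setting drawn.

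**Figure D4:**
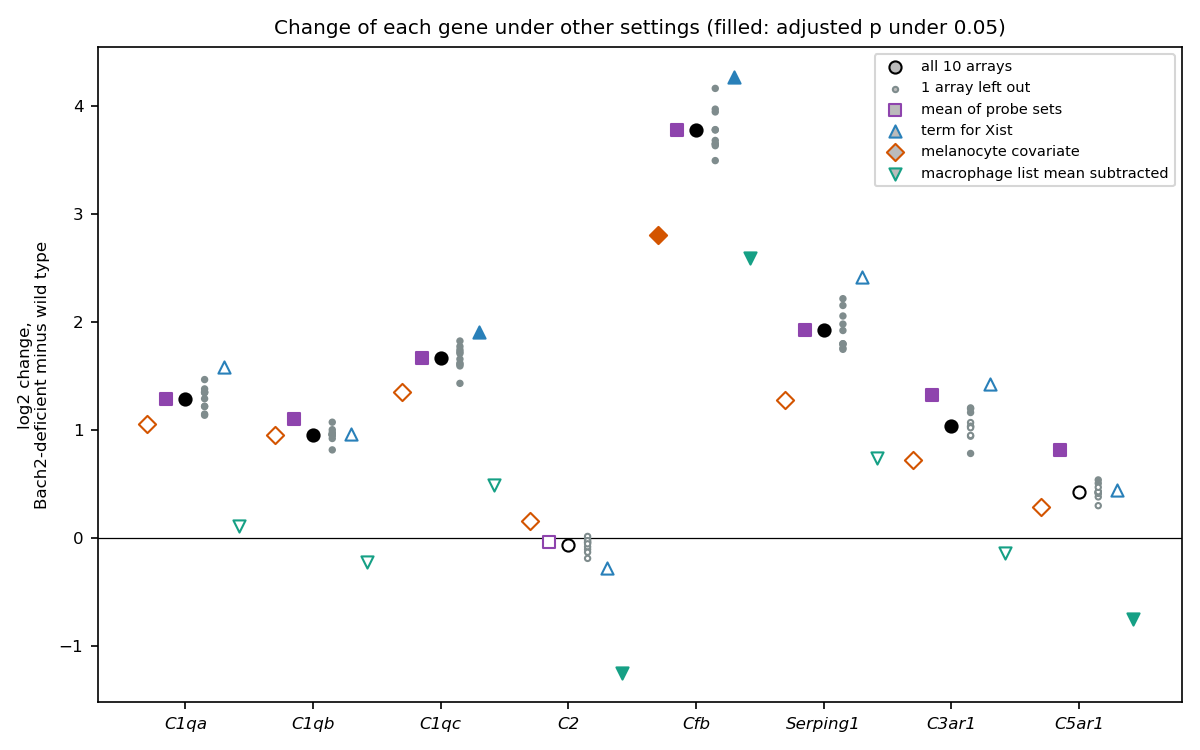
log2 change of the 8 genes, Bach2-deficient minus wild type (vertical axis), in the fit to all 10 arrays and under other settings (symbols); filled symbols have an adjusted p under 0.05. Cfb is filled throughout, and subtracting the macrophage list mean brings C1qa, C1qb and C3ar1 to between -0.22 and 0.11.

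Other genes of the complement pathway were described from a list of 41, of which 35 were measured. Of these, 6 rose and 3 fell, with a median change of -0.12; these shares lie near those of all genes (16.3% rose and 12.4% fell), so the count sets the list apart in neither direction. Of the 11 measured recognition genes, C1ra rose and Colec11 fell. C1ra, a protease of the C1 complex, stood at 7.65, 8.33, 8.19, 8.09 and 7.85 in Bach2-deficient tumors, against 7.29, 6.29, 6.03, 6.61 and 7.42 in wild-type tumors. The groups did not overlap, and the change was 1.30 (SE 0.27; limma adjusted p = 0.00601). C1s1, its partner protease, changed by 0.66 without passing (limma adjusted p = 0.179), from a dim wild-type mean of 4.90. Colec11, a collectin, changed by -0.33 with both means under 4.98 (4.44 and 4.77), and its call was lost without Bach2-deficient replicate 2, 3, 4 or 5 (limma adjusted p from 0.0542 to 0.0564).

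Cfp encodes properdin, which stabilises the alternative C3-cleaving enzyme and is made by leukocytes. It read 9.63, 11.11, 10.52, 10.73 and 10.77 in Bach2-deficient tumors, against 8.42, 9.04, 9.56, 9.15 and 9.62 in wild-type tumors. The groups just failed to overlap, at Bach2-deficient replicate 1 and wild-type replicate 5, and the rise was 1.39 (SE 0.30; limma adjusted p = 0.00664). The mean of both Cfp probe sets changed by 0.87 and passed (limma adjusted p = 0.0440). None of the 5 measured genes of the terminal pathway, which forms the membrane pore, passed (C6, C8a, C8b, C8g and C9, from -0.22 to -0.004). Hc, which encodes C5, changed by 0.21 with both means under 4.98.

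Of the 11 measured regulators, Cr1l rose and Cd59a and Clu fell. Cr1l (Crry) encodes a membrane protein of rodents that limits C3 deposition on cells, and it rose by 0.59 (SE 0.10; limma adjusted p = 0.00190), at 11.12 ± 0.096 in Bach2-deficient and 10.54 ± 0.15 in wild-type tumors (SD, n = 5 each). Cd59a, whose product blocks the membrane pore, fell by 1.50 (SE 0.23; limma adjusted p = 0.00124). It read 8.07, 7.37, 7.45, 7.58 and 7.63 in Bach2-deficient tumors, against 9.33, 8.90, 9.50, 9.46 and 8.38 in wild-type tumors, without overlap. Clu, which encodes clusterin, a fluid-phase inhibitor of the pore and a chaperone, fell by 1.24 (SE 0.21; limma adjusted p = 0.00200), and all 4 of its probe sets pointed down. Cd55 changed by 0.82 and Cd46 by -0.49, and neither passed (limma adjusted p = 0.138 for Cd55).

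The integrin subunits of the complement receptors for cleaved C3 rose furthest on this list. Itgam (CD11b) read 6.34, 7.79, 7.63, 7.63 and 7.59 in Bach2-deficient tumors, against 4.03, 4.70, 4.15, 5.47 and 5.25 in wild-type tumors, a rise of 2.68 (SE 0.35; limma adjusted p = 0.000637). Itgb2 (CD18), the shared beta chain, rose by 2.50 (SE 0.27), and Itgax (CD11c) by 2.27 (SE 0.36). The groups did not overlap for any of the 3. The wild-type mean of Itgam (4.72) lay under 4.98, so the size of its rise is not exact. Relative to the macrophage list all 3 were still called (1.50, 1.32 and 1.09 for Itgam, Itgb2 and Itgax), while C1ra (0.12), Cfp (0.21) and Cr1l (-0.59) were not. With the term for Xist the calls of C1ra (1.61, limma adjusted p = 0.0702), Colec11 (-0.34, limma adjusted p = 0.247) and Clu (-1.10, limma adjusted p = 0.102) were lost. With the melanocyte covariate Itgam (2.21) and Itgb2 (1.97) alone were called, while Itgax stood at 1.82, Cd59a at -1.26, C1ra at 1.19, Clu at -1.12, Cfp at 0.76, Cr1l at 0.55 and Colec11 at -0.25. Hepatocyte markers, which would mark a liver-like source of complement, had list means of 4.60 to 4.86 in Bach2-deficient and 4.70 to 5.02 in wild-type tumors, and albumin read 4.35 ± 0.24 in Bach2-deficient and 4.45 ± 0.19 in wild-type tumors (SD, n = 5 each), under the 4.98 level.

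**Figure D5:**
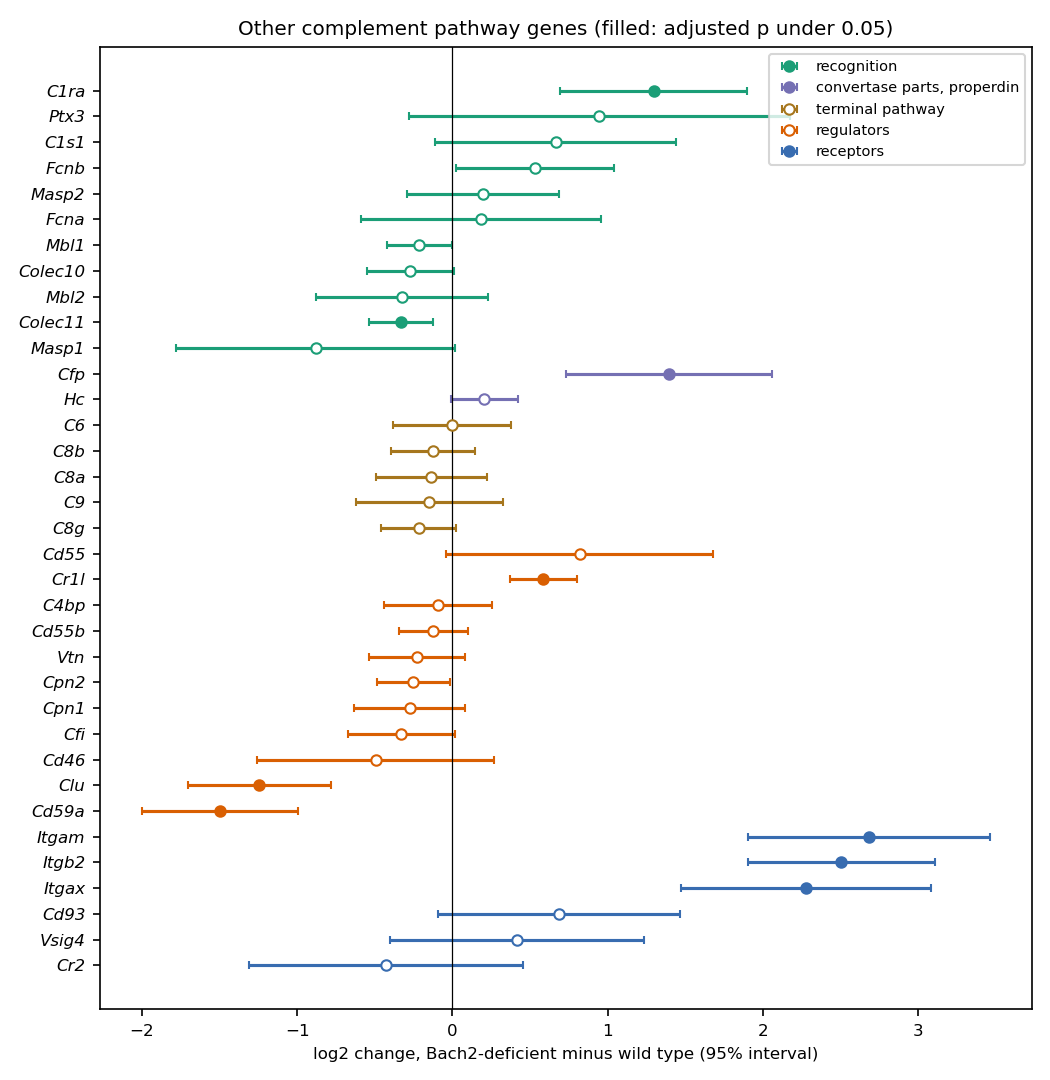
log2 change, Bach2-deficient minus wild type, with its 95% interval (horizontal axis) for the 35 other measured complement pathway genes, coloured by role; filled points have a limma adjusted p under 0.05. The 3 integrin genes lie furthest right at 2.27 to 2.68, and Cd59a (-1.50) and Clu (-1.24) are the called genes furthest left.

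For each member, the genes with the closest profile were taken by the root mean square difference over the 10 arrays, after each gene's own mean was removed. For C1qc these were Laptm5 (0.12), Ly6e (0.12) and Mpeg1 (0.15), for C1qa Mir142 (0.15), Rilpl2 (0.17) and Ptger4 (0.17), and for C1qb Ankhd1 (0.13), Pdcd6ip (0.14) and Tti1 (0.14). The profile of C1qa lay 0.25 from that of C1qc, the 40th closest gene, and 0.33 from that of C1qb, the 236th. C1qb and C1qc lay 0.44 apart, C1qc being the 2206th closest gene to C1qb. C5ar1 lay closer to C1qb than either other chain did (0.29, the 274th). For Cfb the closest were Il18bp (0.33), Il2rb (0.36) and Naaa (0.36), all of which rose (by 3.24, 4.19 and 3.60). By closeness to Cfb, C2 ranked 10396th among the other genes, at 2.11. The measure keeps the difference between the groups, so these rises and this rank follow largely from the group changes already given. Serping1 lay closest to Fmnl1 (0.21), Abi3 (0.27) and Siglece (0.27), C3ar1 to Rab7b (0.15), Ccr7 (0.15) and Cd68 (0.16), C5ar1 to Hmox1 (0.11), Mfsd14b (0.12) and Srgn (0.13), and C2 to Pum3 (0.10), Coa3 (0.10) and Mcm7 (0.11). A gene that varies little lies close to many others by this measure, as C2 and C5ar1 do.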

How the data were processed

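The deposited table holds log2 values made by the authors with RMA (background correction, quantile normalization, probe summary) and Partek, per the submitters' processing notes, for 10 arrays, with no version stated there. Values ran from 1.99 to 14.4 with array medians of 5.80 to 5.88, a log2 scale, and were used as deposited. Groups came from the sample titles. The labels do not tie tumors to individual mice; p-values therefore reflect only the scatter among these samples, possibly technical, and precision is limited by having 5 arrays a group.

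Of 45101 probe sets, 34945 had 1 symbol, 932 several, and 64 were controls; only those with 1 symbol were used. Each gene stood for its probe set with the highest mean over all arrays (18193 genes). Differences, Bach2-deficient minus wild type, came from limma 3.58.1 under R 4.3.3 (moderated, 2-sided, genotype as the single factor), with Benjamini-Hochberg adjustment. This ran over all genes for a gene and the probe set that stands for it. It ran over all probe sets for other probe sets, for counts of probe sets and where stated. The fit was tested on simulated data. Members, lists, settings and the rule for named genes were chosen with earlier results of these data known. The rule named all members and Bach2, the pathway genes that were called with the defining ones that were not, and for each member the 3 closest profiles; list markers were named as examples.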

Additional observations from a re-analysis of the deposited data

Results flagged for a closer look

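Of 30 groups of 5 arrays (15 probe sets in each genotype), 1 held an array far from the others, where chance gives about 1 in 20. Cfb read 8.59 in Bach2-deficient replicate 1, against 10.1 to 10.7 in the other Bach2-deficient tumors. Without that array Cfb changed by 4.16 (limma adjusted p = 8.71e-05), against 3.78 with it.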

How the results depend on the processing

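Each gene was recomputed under 22 other settings, 10 of which left out 1 array. Cfb kept its direction and its call in all 22, C1qa, C1qb, C1qc and Serping1 in 18, 18, 19 and 18, and C3ar1 in 12; 2 of the 22, the Xist term and the high-Xist arrays, are 1 contrast. Member genes that rose numbered 6 with all arrays, 2 with the Xist term, and 1 each with the high-Xist arrays alone, the melanocyte covariate and the macrophage list subtracted; member probe sets that rose numbered 11, 2, 1, 1 and 1. The high-Xist fit holds Bach2-deficient replicate 2 alone, which is assumed to vary like the other samples, so it adds no independent support. With the macrophage list subtracted, 2 member genes and 4 member probe sets fell, against 0 and 0. Other pathway genes that rose numbered 6, and 3, 2 and 3 under the high-Xist arrays, the melanocyte covariate and the macrophage subtraction. Those that fell numbered 3, and 1 with the Xist term, 0, 0 and 23 under the same 3 settings. All genes that rose numbered 2962 at first and 1030, 671, 633 and 555 under the Xist term and those 3 settings, and all that fell 2264, 387, 348, 262 and 14801. The macrophage subtraction shifts every gene down by its construction. For the other counts the cause was not tested.

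Leaving out 1 array gave 5 to 7 member genes and 8 to 12 member probe sets that rose, and 0 to 0 genes and 0 to 1 probe sets that fell. It gave 6 to 7 other pathway genes that rose and 2 to 4 that fell, and 2270 to 3120 of all genes that rose and 1388 to 2807 that fell (1388 without Bach2-deficient replicate 2, 1447 without replicate 4). Signs of the brightest probe sets turned for C1qb (-0.22), C3ar1 (-0.14) and C5ar1 (-0.75) under the macrophage subtraction. There 1434366_x_at of C1qb turned too (-0.34). The sign held for 1417063_at of C1qb (0.33), 1419482_at (0.42) and 1442082_at (0.15) of C3ar1 and 1422190_at of C5ar1 (0.01). The sign of C2 turned with the melanocyte covariate (0.15) and with 1 array left out (changes from -0.19 to 0.015, the last without Bach2-deficient replicate 5). The cause of these turns was not tested.

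The groups share replicate numbers. The deviations of same-numbered samples from their group means correlated at 0.32, 0.0062, 0.22, 0.089 and 0.063, so the numbers were not taken to pair the samples. With the replicate block 7 member genes rose and 0 fell, C5ar1 being the added one (0.43, limma adjusted p = 0.0457), 11 member probe sets rose and 0 fell, 6 other pathway genes rose and 3 fell, and 2842 of all genes rose and 2110 fell. Dim genes such as Serping1 in wild-type tumors are read near the background, which limits the size of their change.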
